A study of Homo sapiens with 31 samples.

Results

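The genes described here are 40 genes of the cellular response to low oxygen and of glycolysis, chosen by name and grouped into 8 roles, from oxygen sensing to the last step of lactate formation. All 40 were found among the 57992 genes of the steady-state tables and the 43682 genes of the actinomycin D tables. The samples are labelled as PANC-1, an established human pancreatic ductal adenocarcinoma cell line, and the comparison is between cells labelled as a KHSRP knockout (KO) and cells labelled NC, whose genotype is given as WT. KHSRP is an RNA-binding protein of the KH domain family that binds AU-rich elements and promotes mRNA decay, and the series asked what its loss does to mRNA levels and mRNA lifetime. In the steady state there were 3 libraries labelled KO and 3 labelled NC, with no treatment named. In the actinomycin D series there were 2 libraries for each label at each of 0, 2, 4, 6 and 8 h of treatment with actinomycin D, a drug that blocks transcription, so that all of these libraries, the 0 h ones included, carry an actinomycin D label. The labels do not say whether the knockout is 1 clone or whether libraries came from separate cultures, and p-values then measure only the spread between libraries, which may be technical. The other 5 of the 31 samples, crosslinking libraries for m6A and for KHSRP binding, were not analysed here.

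When oxygen is plentiful, prolyl hydroxylases of the EGLN family mark the HIF alpha proteins, VHL binds the marked protein, and it is degraded. When oxygen falls, HIF alpha is kept, pairs with ARNT and binds short DNA sites with the core ACGTG or GCGTG near genes for glucose uptake, glycolysis, vessel growth, pH control and collagen modification. Many of those genes also carry the basal load of glycolysis in cultured tumour cells and are therefore among the most abundant mRNAs, while the mRNAs of several regulators (VEGFA, ADM, EGLN1, the PFKFB enzymes) are short-lived or quickly induced.

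Each steady-state library held between 33706226 and 43278149 counts, and each library of the actinomycin D series between 19177934 and 25768060. KHSRP, the targeted gene, was at 10.6, 9.89 and 9.49 CPM (the count scaled to the library's total) in the steady-state libraries labelled KO and at 64.4, 65.7 and 64.9 in those labelled NC, a log2 change of -2.70 ± 0.08 (SE; edgeR, adjusted p = 4.5e-07). In the actinomycin D series it was at 134 to 156 CPM under the KO label (median 149) and at 375 to 459.5 under the NC label (median 439), so every library labelled KO there had a higher KHSRP CPM than the steady-state libraries labelled NC, in tables that were counted separately. CDKN2A is homozygously deleted in the PANC-1 line. It had at most 6 counts in any steady-state library and 0 in all actinomycin D libraries labelled KO, and 2728 to 5476 counts in each of the 10 labelled NC. Of 9 ductal epithelial marker genes, 9 had a median of at least 1 CPM in both steady-state groups and in the actinomycin D libraries labelled KO, and 5 did in those labelled NC, where KRT19, EPCAM, CDH1 and SOX9 were below it. The 10 actinomycin D libraries labelled NC may therefore not be PANC-1 cells, which was not tested. The 2 labels of the actinomycin D series therefore differ in more than KHSRP, and the genotype and whatever else differs between those libraries cannot be told apart. Comparisons of times within 1 label do not rest on that difference.

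The cores bound by HIF were looked for upstream of the genes. RefSeq promoters (GRCh38.p14, 250 bases before to 50 after a start) were at hand for 35 of the 40 genes, with 63 starts. ACGTG, on either strand, was present in 24 of the 63 (38.1%) and in 21.4% of the 35116 promoters of all genes. GCGTG was present in 27 (42.9%) against 36.5%, and one or the other in 43 (68.3%) against 48.4%. The genes were chosen by name for the response to low oxygen and for glycolysis, so a higher share could come from that choice. Several starts can belong to 1 gene, and of the 35 genes 20 held ACGTG. The 2 cores were counted separately and may both lie in 1 promoter, and ACGTG is also the greater part of CACGTG, the palindrome that many other factors bind. The stretches below, each 80 bases on the strand of the gene, 5′ to 3′, hold the ACGTG core (ACGTG, or CACGT where it lies on the other strand) in capitals. Of the members with a promoter, ACGTG lay upstream in 3 of 6 higher and 16 of 26 lower at NC 4 h. At KO 6 h it lay upstream in 2 of 6 higher and 13 of 23 lower. ADM, KDM3A and SLC2A1 were higher at both times without it, and VEGFA and VHL had no promoter at hand. EGLN1, HK2 and PFKFB3 are the 3 higher at NC 4 h with a core, and LDHA, GAPDH and PGK1 are among the lower ones with it. Their positions are chr1:231422288-231422367 for EGLN1 (minus strand), chr2:74834042-74834121 for HK2, chr10:6202788-6202867 for PFKFB3, chr11:18394453-18394532 for LDHA, chr12:6535147-6535226 for GAPDH and chrX:78104028-78104107 for PGK1 (all plus strand).
EGLN1: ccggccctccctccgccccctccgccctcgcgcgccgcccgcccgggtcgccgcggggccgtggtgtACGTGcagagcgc
HK2: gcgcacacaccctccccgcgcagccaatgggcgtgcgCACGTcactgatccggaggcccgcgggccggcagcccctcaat
PFKFB3: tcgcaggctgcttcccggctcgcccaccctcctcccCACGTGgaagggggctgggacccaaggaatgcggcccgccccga
LDHA: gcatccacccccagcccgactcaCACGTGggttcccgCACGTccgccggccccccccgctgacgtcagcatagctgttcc
GAPDH: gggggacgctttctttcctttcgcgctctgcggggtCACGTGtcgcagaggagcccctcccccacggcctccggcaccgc
PGK1: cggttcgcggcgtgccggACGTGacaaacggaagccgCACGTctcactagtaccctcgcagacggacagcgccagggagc
The core nearest the start began 13 bases before it in EGLN1, 48 in HK2, 107 in PFKFB3, 73 in LDHA, 80 in GAPDH and 183 in PGK1. LDHA and PGK1 hold 2 cores in the stretch, and in PFKFB3, GAPDH and the first of LDHA the core is part of CACGTG. A match describes the letters of this window only.

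In the steady state the collagen-modifying enzymes P4HA1 and PLOD2, the mitophagy receptor BNIP3L, the kinase PDK1 and HIF1A itself were lower under the KO label, while NDRG1, ADM, the sugar transporters and most middle steps of glycolysis were higher by 1.15 to 1.75 fold. Of the 39 members that passed the filter on low counts (EGLN3 did not), 17 were higher and 10 lower (edgeR quasi-likelihood test, Benjamini-Hochberg adjusted p under 0.05 over all genes). Of all 17240 genes tested 50.6% were called, 24.4% higher and 26.3% lower, so the members' count of lower genes was close to the background and their count of higher genes above it. The median log2 change was 0.17 over the members and 0.02 over all genes. The groups did not overlap for 29 of the 39 members, 19 with KO above and 10 with KO below, against 60.0% of all genes (30.4% above and 29.6% below). Levels are relative to the other mRNAs of a library, and in bulk RNA fewer cells and less RNA per cell cannot be told apart. Leaving out each library in turn, 19 of the 27 called members kept their call every time. The same share over all called genes was not counted, so the 19 cannot be set against it.

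**Figure D1:**
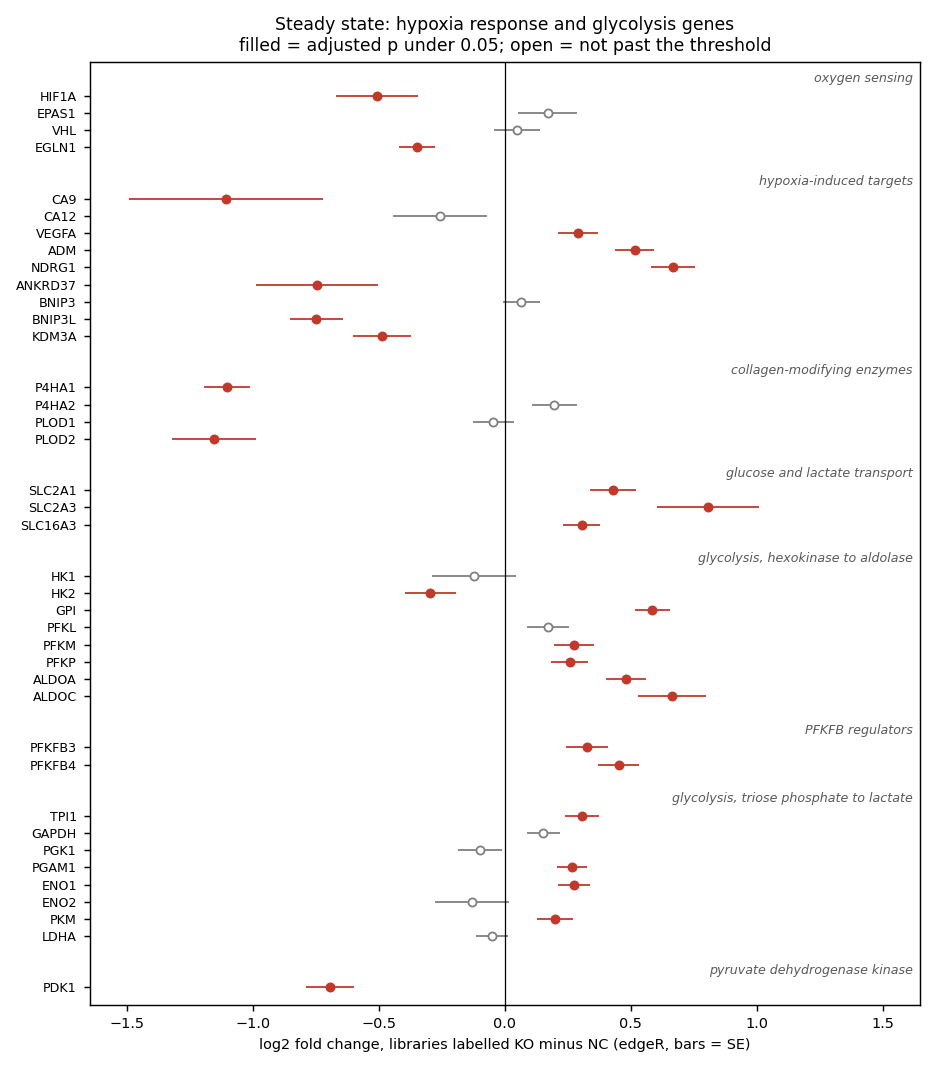
Log2 fold change of each member between the steady-state libraries labelled KO and NC (3 each), with its standard error, grouped by role; filled points passed an adjusted p of 0.05. The transporters and the PFKFB regulators lie to the right of 0, PDK1, P4HA1 and PLOD2 to the left, and the hypoxia-induced targets on both sides.

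Among the oxygen sensors, HIF1A, the oxygen-regulated subunit of HIF-1, had 318, 181 and 254 CPM under the KO label and 363, 344 and 362 under NC. All KO values lay below all NC values, with a wide spread among the KO libraries. The log2 change was -0.51 ± 0.16 (SE, n = 3 and 3; edgeR, adjusted p = 0.026), and the call was lost in 4 of the 6 fits that left out a library. EGLN1, the main HIF prolyl hydroxylase, fell by 0.35 ± 0.07 on the log2 scale (87.5, 81.5 and 82.8 against 107, 107 and 107 CPM; edgeR, adjusted p = 0.0029), but offsets that remove a trend with gene length gave 0.11 (adjusted p = 0.25). EPAS1, which encodes HIF-2 alpha, had a log2 change of 0.17 ± 0.12 and VHL one of 0.05 ± 0.09, and neither passed, although with length-adjusted offsets EPAS1 did (0.44; edgeR, adjusted p = 0.013). EGLN3, a prolyl hydroxylase that is itself strongly induced by HIF, was at 0.0258 to 0.175 CPM in all 6 libraries. Of 14 other oxygen-sensing factors tested, 5 rose and 2 fell, where 24.4% of all genes rose and 26.3% fell. Among these factors were CITED2, which competes with HIF for its coactivator (0.71), and CUL2, the scaffold of the VHL ubiquitin ligase (-0.61).

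The hypoxia-induced targets split in both directions, 3 higher and 4 lower of 9, where 24.4% of all genes were higher and 26.3% lower. NDRG1, a stress-response gene, had 22.2, 22.8 and 23.8 CPM under the KO label against 14.0, 15.6 and 13.7 under NC, a log2 change of 0.67 ± 0.09 (edgeR, adjusted p = 0.00026). ADM, which encodes the peptide hormone adrenomedullin, had 108, 99.0 and 98.2 CPM against 70.9, 73.9 and 68.2, a change of 0.52 ± 0.08 (adjusted p = 0.00054). VEGFA, the vessel growth factor, had 51.4, 57.6 and 56.9 CPM against 44.6, 47.0 and 44.2, a change of 0.29 ± 0.08 (adjusted p = 0.013); its call was lost in 3 of the 6 fits without a library. In these 3 genes every KO library lay above every NC library. BNIP3L went the other way, with 52.5, 39.1 and 43.4 CPM against 75.3, 74.8 and 76.5 (log2 change -0.75 ± 0.11, adjusted p = 0.00041). So did KDM3A, a histone demethylase, with 61.5, 44.8 and 48.3 CPM against 71.5, 70.7 and 74.6 (-0.49 ± 0.11, adjusted p = 0.0057), although length-adjusted offsets gave -0.21 with an adjusted p of 0.071. CA9, the cell-surface carbonic anhydrase often used as a marker of hypoxia, was nearly absent, at 0.115, 0.269 and 0.346 CPM against 0.555, 0.501 and 0.567; its call (-1.11 ± 0.38, adjusted p = 0.036) held in 1 of the 6 fits without a library. ANKRD37 also fell, at 1.05 to 1.06 against 1.31 to 2.39 CPM. CA12 and BNIP3, the close relative of BNIP3L, did not pass. Of 33 other hypoxia-induced genes tested, 8 rose and 11 fell, with a median of -0.02: HMOX1 (heme oxygenase, 0.76) and STC2 (stanniocalcin, 0.61) rose, while INSIG2 (a regulator of sterol synthesis, -1.40) and ANGPTL4 (an inhibitor of lipoprotein lipase, -0.84) fell.

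The largest falls among the members above 10 CPM were those of PLOD2 and P4HA1, 2 of the 4 collagen-modifying enzymes. PLOD2, a lysyl hydroxylase that prepares collagen for stable crosslinks, had 278, 157 and 207 CPM under the KO label and 482, 456 and 493 under NC (log2 change -1.16 ± 0.17; edgeR, adjusted p = 0.00043). P4HA1, the alpha subunit of collagen prolyl 4-hydroxylase, had 37.5, 30.3 and 36.2 CPM against 74.6, 74.7 and 74.1 (-1.10 ± 0.09, adjusted p = 3.5e-05). In both genes all KO libraries lay below all NC libraries. Their partners did not pass: P4HA2 gave 0.20 ± 0.09 and PLOD1 -0.05 ± 0.08. On the authors' TPM, which is per length, P4HA1 accordingly made up 53.8 to 63.6% of P4HA1 plus P4HA2 under the KO label and 77.9 to 80.3% under NC, and PLOD2 53.4 to 70.1% of PLOD1 plus PLOD2 against 76.7 to 79.1%.

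All 3 transporters rose. SLC2A1 (GLUT1), the basal glucose carrier, had 89.9, 109 and 106 CPM under the KO label against 76.7, 72.2 and 78.1 under NC (log2 change 0.43 ± 0.09; edgeR, adjusted p = 0.0036). SLC16A3 (MCT4), which exports lactate, changed by 0.31 ± 0.07, and SLC2A3 (GLUT3) by 0.81 ± 0.20 at a low level, 1.41 to 1.9 against 0.905 to 1.07 CPM. Of the genes from hexokinase to aldolase, 5 rose and 1 fell of 8, where 24.4% of all genes rose and 26.3% fell. GPI, which turns glucose 6-phosphate into fructose 6-phosphate, had 281, 309.8 and 301 CPM against 197, 193 and 204 (0.59 ± 0.07, adjusted p = 0.00017), and its groups did not overlap. ALDOA, the main aldolase, had 1303, 1429 and 1386 CPM against 915, 1088 and 947 (0.48 ± 0.08, adjusted p = 0.00085), and the less abundant ALDOC 13.9, 13.5 and 15.1 against 8.29, 10.9 and 7.6 (0.66 ± 0.14, adjusted p = 0.0029). PFKM and PFKP, 2 of the 3 phosphofructokinase subunits, rose by less (0.28 ± 0.08 and 0.26 ± 0.07), and each kept its call in 2 of the 6 fits without a library; PFKP held 72.1 to 73.0% of the family's TPM under KO and 72.5 to 73.1% under NC. HK2 was the member that fell (-0.30 ± 0.10, adjusted p = 0.033), but length-adjusted offsets gave 0.13 (adjusted p = 0.38). The regulators of phosphofructokinase rose too: PFKFB4 had 20.9, 19.7 and 20.2 CPM against 14.5, 14.4 and 15.5 (0.45 ± 0.08, adjusted p = 0.0015), and PFKFB3 had 29.5, 31.6 and 31.7 against 24.6, 26.2 and 23.2 (0.33 ± 0.08, adjusted p = 0.0083).

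From triose phosphate to lactate 4 of 8 genes rose, by small amounts, and none fell: TPI1 0.31 ± 0.07, PGAM1 0.27 ± 0.06, ENO1 0.27 ± 0.06 and PKM 0.20 ± 0.07 (log2 changes; PKM lost its call in 5 of the 6 fits without a library and with 2 other scalings). LDHA, which reduces pyruvate to lactate, had 1284, 1397 and 1448 CPM under the KO label against 1452, 1415 and 1412 under NC, so the groups overlapped, and its change was -0.05 ± 0.06 (edgeR, adjusted p = 0.53). PGK1, the first enzyme to yield ATP, had 1074, 858 and 878 CPM against 1014, 1011 and 985 and a change of -0.10 ± 0.09 (adjusted p = 0.37); without KO replicate 1, the library with 1074, it passed at -0.19 (adjusted p = 0.004). GAPDH gave 0.15 ± 0.06 and ENO2 -0.13 ± 0.15, neither past the threshold. PDK1, which phosphorylates and inhibits pyruvate dehydrogenase and is a usual HIF target, fell, with 35.3, 28.0 and 31.3 CPM against 51.9, 49.7 and 51.5 (-0.70 ± 0.09, adjusted p = 0.00031). Neighbouring pathways also moved both ways, as did all genes tested, of which 24.4% rose and 26.3% fell. Of 15 pentose phosphate and glycogen genes 6 rose and 4 fell, among them the transketolase TKT (0.94) and UGP2 (-1.54), which makes UDP-glucose, and of 15 genes of pyruvate oxidation 5 rose and 4 fell. GAPDH, PGK1, ENO1 and LDHA have processed pseudogene copies in the genome, to which the authors' counting could have assigned some reads. The summed level of 6 immune marker genes moved with these groups, at 93.1 to 118 CPM under the KO label and 64.4 to 67.5 under NC, with 2 of the 6 (CD68 and CD14) at 1 CPM or more in both. Their part in the steady-state changes was not tested.

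**Figure D2:**
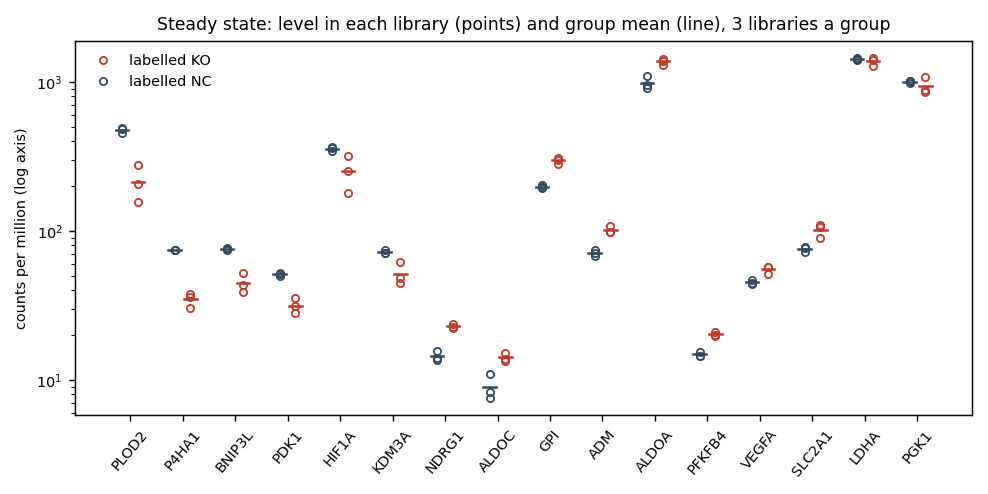
CPM (log axis) of 16 members in each steady-state library, with a line at the mean of 3 libraries. The groups are apart for PLOD2, P4HA1, BNIP3L, PDK1 and GPI and overlap for LDHA and PGK1; the KO libraries spread most for HIF1A and PLOD2.

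The per-length levels of the 40 genes kept much the same order in both steady-state groups. By median TPM, GAPDH was the highest (1351 under the KO label, 1029 under NC), followed by ENO1 (685 and 444) and ALDOA (523 and 319), and EGLN3, SLC2A3, CA12 and CA9 were the lowest 4 in both. HIF1A was at 36.1 and 44.8 TPM, ADM at 35.6 and 23.1, and NDRG1 at 3.99 and 1.97. Differences in TPM between the labels were not tested and are not those found on counts. On counts the change of GAPDH did not pass, and those of ENO1 and NDRG1 were smaller than these pairs imply.

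In the actinomycin D series the members differed between the labels by far more than in the steady state, and often the other way. PLOD2 was the extreme, at 578 to 1065 CPM under the KO label (median 849) and 44.9 to 85.6 under NC (median 65.0), over all 10 libraries of each label. At 0 h, 16 members were higher and 16 lower under the KO label, where 67.1% of all genes were called (35.5% higher and 31.6% lower). Over all times, 20 were higher and 17 lower of 40, where 83.1% of all 17715 genes were called, 41.6% higher and 41.6% lower. Their groups did not overlap for 19 members, 12 with KO above and 7 with KO below, against 38.2% of all genes (19.4% above and 18.7% below). Which members count as higher depends on the scaling: scaled to the counts of 79 ribosomal protein genes, with the median gene at 0.37, 27 members were higher and 9 lower, and on the authors' molecule scale, with the median gene at 0.40, 27 were higher and 8 lower of 39. All genes moved with the scaling too, with 54.7% higher and 28.95% lower on the first and 56.2% and 26.6% on the second. At 0 h the first gave 25 members higher and 8 lower (49.6% and 19.9% of all genes), and the second 29 and 6 (63.1% and 11.3%).

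**Figure D3:**
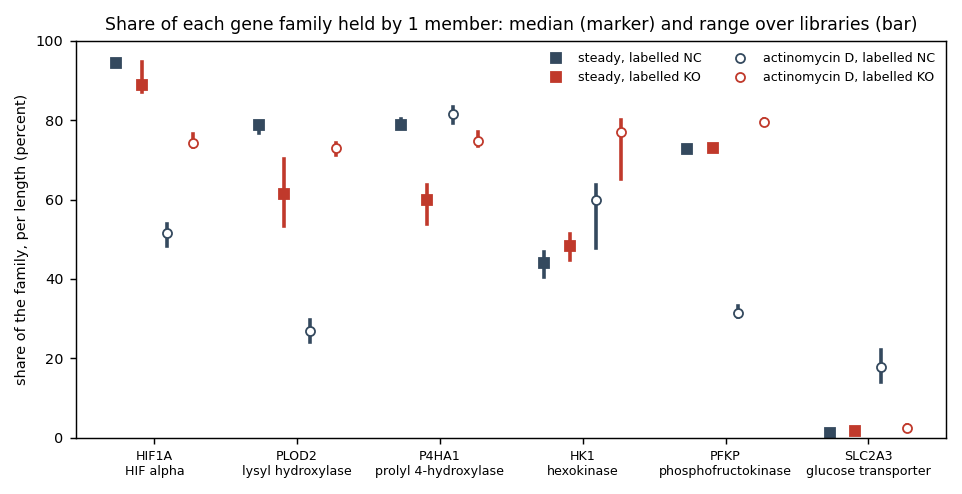
Share of 6 gene families held by 1 member, in percent of the family's TPM (steady state) or RPKM (actinomycin D); markers are medians and bars the range over the libraries. In the actinomycin D series PLOD2 and PFKP hold 71.2 to 80.2% of their families under the KO label and 24.1 to 33.1% under NC.

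Shares of RPKM within a gene family do not change when a library's values are all multiplied by 1 factor, as in TMM or ribosomal protein scaling. The molecule scale is a power of RPKM and would change them. Of the phosphofructokinase RPKM in the actinomycin D series, the platelet type PFKP held 78.8 to 80.2% under the KO label and 30.5 to 33.1% under NC, where the muscle type PFKM held 37.0 to 41.5%. PLOD2 held 71.2 to 74.2% of PLOD1 plus PLOD2 against 24.1 to 29.8%. HIF1A held 73.2 to 76.6% of HIF1A plus EPAS1 against 48.3 to 53.8%. GLUT3 (SLC2A3) held 1.6 to 3.1% of SLC2A1 plus SLC2A3 against 14.0 to 22.2%. None of these 4 pairs of ranges overlapped. In the steady state HIF1A held 87.2 to 94.7% under KO and 93.6 to 94.9% under NC. Levels of the steady-state and actinomycin D tables were not set on 1 scale.

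Members higher under the KO label over all times were, after PLOD2 (log2 change 3.71 ± 0.02; edgeR, adjusted p = 3.7e-55), PFKP at 559 to 936 against 132 to 208 CPM (2.05 ± 0.02), the neuronal enolase ENO2 at 43.1 to 88.2 against 9.05 to 25.98 (1.94 ± 0.05), the hexokinase HK1 at 184 to 258 against 66.4 to 97.6 (1.44 ± 0.03), P4HA2 at 56.5 to 89.8 against 22.5 to 36.7 (1.36 ± 0.04) and PFKFB3 at 28.3 to 43.2 against 9.7 to 22.8 (1.30 ± 0.06). Members lower under the KO label were SLC2A3 at 2.11 to 4.33 against 20.4 to 39.6 CPM (-3.08 ± 0.08), CA12 at 3.25 to 7.0 against 19.2 to 44.3 (-2.68 ± 0.08), NDRG1 at 45.6 to 62.7 against 195 to 265 (-2.12 ± 0.03), EPAS1 at 73.9 to 103 against 278 to 353 (-1.77 ± 0.02), ALDOC at 4.46 to 8.7 against 13.1 to 30.8 (-1.69 ± 0.07) and PFKM at 87.8 to 134 against 231 to 353 (-1.39 ± 0.02). In each of these 12 genes, PLOD2 included, the 10 libraries of 1 label lay wholly above the 10 of the other, and their direction was the same in all scalings. VEGFA was higher (0.92 ± 0.05) and LDHA lower (-0.58 ± 0.01; adjusted p = 2.1e-35, but -0.10 with an adjusted p of 0.39 on the molecule scale). HIF1A (-0.28 ± 0.02) and PGK1 (-0.19 ± 0.01) changed sign under the other 2 scalings (0.10 and 0.16 for HIF1A, 0.20 and 0.27 for PGK1), and SLC2A1, at -0.02 ± 0.03, did so too (0.37 and 0.44). PDK1 changed by 0.18 ± 0.04 (35.3 to 40.4 against 25.1 to 39.0 CPM) and CA9 by 0.41 ± 0.19 (1.74 to 4.34 against 0.282 to 4.23 CPM; edgeR, adjusted p = 0.046), and in both genes the labels overlapped. The CA9 call was lost with DESeq2 (adjusted p = 0.052), with the replicate block (adjusted p = 0.05) and in 11 of the fits that left out a library. SLC2A3, NDRG1, ALDOC and PFKM were higher under the KO label in the steady state and lower here. KDM3A, P4HA1 and PLOD2 were lower there and higher here, and the groups of these genes did not overlap in either set. The share of all genes that switched sides in this way was not counted. CDKN2A and the epithelial markers moved with the labels, and their part in these results was not tested.

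Of 34 other hypoxia-induced genes, 16 were higher and 15 lower under the KO label, where 41.6% of all genes were higher and 41.6% lower. STC1, which encodes stanniocalcin, was at a mean of 47.8 CPM under KO and 0.217 under NC, and ANGPTL4 at 85.5 and 0.97. LOX, a lysyl oxidase that crosslinks collagen, was at 5.88 and 42.6 CPM, and the chemokine receptor CXCR4 at 0.102 and 13.5. The lactate and pyruvate carrier SLC16A7 (MCT2) was at 1.76 CPM against 69.8, and brain glycogen phosphorylase PYGB at 1063 against 114. Of the 9 ductal markers above, the summed level was 3974 to 6525 CPM under the KO label and 2982 to 4638 under NC. The summed level of 6 immune genes was 113 to 249 against 10.4 to 15.2 CPM, with CD68 and CD14 at 1 CPM or more under KO and CD68 alone under NC; their part in the result was not tested.

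Within each label, the times did not follow a steady course. The labelled times may not be the true ones, which was not tested, and the values below are given by label. In the libraries labelled NC most glycolytic enzymes were lowest at 4 h and back near their 0 h level at 6 and 8 h. In those labelled KO most were lowest at 6 h, and all but LDHA, HK2 and ALDOC had a mean above their 0 h level at 8 h. At those same times ADM, EGLN1, VEGFA and KDM3A were at their highest. Against 0 h, the libraries labelled NC gave 7 members higher and 19 lower at 2 h and 9 and 27 at 4 h. Of all genes, 31.8% were called at 2 h (16.9% higher and 14.9% lower) and 51.5% at 4 h (27.1% and 24.4%). Members higher and lower were 2 and 2 at 6 h and 6 and 1 at 8 h. Of all genes, 4.42% were called at 6 h (3.12% higher and 1.3% lower) and 3.21% at 8 h (1.61% and 1.59%). Leaving out 1 library took the 4 members called at 6 h to 1 and the 7 at 8 h to between 1 and 6. Those labelled KO gave 6 and 3 at 2 h (9.16%, with 4.87% higher and 4.29% lower), 7 and 17 at 4 h (27.7%), 8 and 24 at 6 h (47.7%) and 15 and 5 at 8 h (22.1%), and the 9 called at 2 h became 5 to 7 without 1 library. A test of any difference among the 5 times called 38 of 40 members under NC (54.7% of all genes) and 35 under KO (55.9%). The direction of these counts depends on the scaling, which moved the counts over all genes too. Scaled to ribosomal protein genes, the higher and lower members were 16 and 0, 21 and 3, 6 and 0, and 1 and 6 at the 4 times under NC. Of all genes, 38.03, 55.6, 8.73 and 0.26% were then higher and 0.581, 1.15, 0.203 and 9.11% lower. Under KO the members were 0 and 6, 19 and 0, 27 and 0, and 1 and 12, with 0.525, 35.1, 52.2 and 1.61% of all genes higher and 11.3, 0.339, 0.564 and 25.8% lower. On the molecule scale they were 6 and 0, 9 and 12, 0 and 29, and 0 and 37 of 39 under NC, with 18.7, 38.8, 0.307 and 0.0214% of all genes higher and 1.09, 8.94, 49.4 and 83.7% lower. Under KO they were 0 and 36, 3 and 25, 3 and 28, and 0 and 39, with 0.0786, 3.56, 11.2 and 0.0143% of all genes higher and 71.4, 45.7, 50.3 and 91.6% lower.

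**Figure D4:**
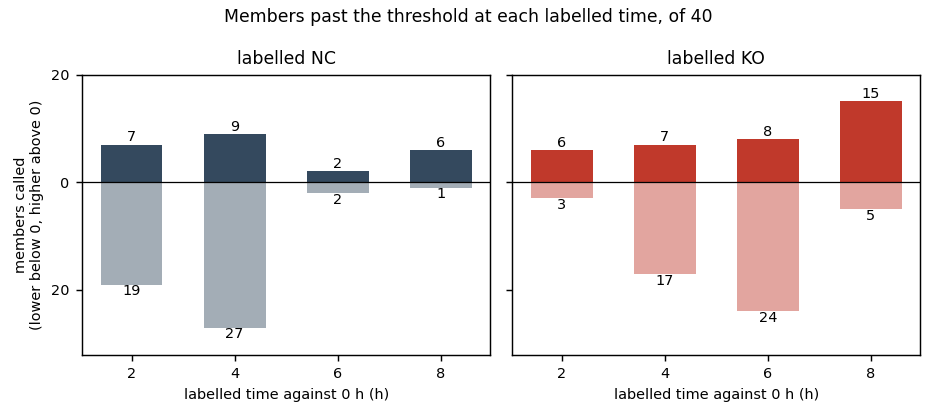
Number of the 40 members past the threshold at each labelled time against 0 h, higher above the line and lower (paler) below it, for each label (2 libraries a time). The most lower members are at 4 h under NC (27) and at 6 h under KO (24).

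ADM showed the sharpest course of all members. Under the NC label it had 6.46 and 6.05 CPM at 0 h, 6.83 and 5.55 at 2 h, 75.6 and 76.8 at 4 h, 3.98 and 4.75 at 6 h and 5.09 and 5.59 at 8 h. Under the KO label it had 7.44 and 6.44, 6.26 and 7.13, 14.2 and 11.5, 76.9 and 77.8, and 5.95 and 7.83 at the same times. One time of each label thus stood far above every other time of that label, with like values in its 2 libraries. The log2 changes were 3.60 ± 0.15 (NC, 4 h) and 3.47 ± 0.15 (KO, 6 h; edgeR, adjusted p = 8.6e-23 and 3.7e-22). VEGFA under NC went from 21.6 and 19.8 CPM to 46.2 and 54.1 at 4 h (1.28 ± 0.11) and was at 21.0 and 27.9 at 8 h; under KO it went from 46.3 and 46.7 to 74.2 and 72.5 at 6 h (0.66). EGLN1 under NC went from 83.5 and 85.8 CPM to 182 and 188 at 4 h (1.13), and under KO from 40.3 and 47.8 to 88.4 and 89.2 at 6 h (1.01). These 3 genes were higher at those times in all scalings, although VEGFA under KO did not pass on the molecule scale (0.29, adjusted p = 0.099).

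**Figure D5:**
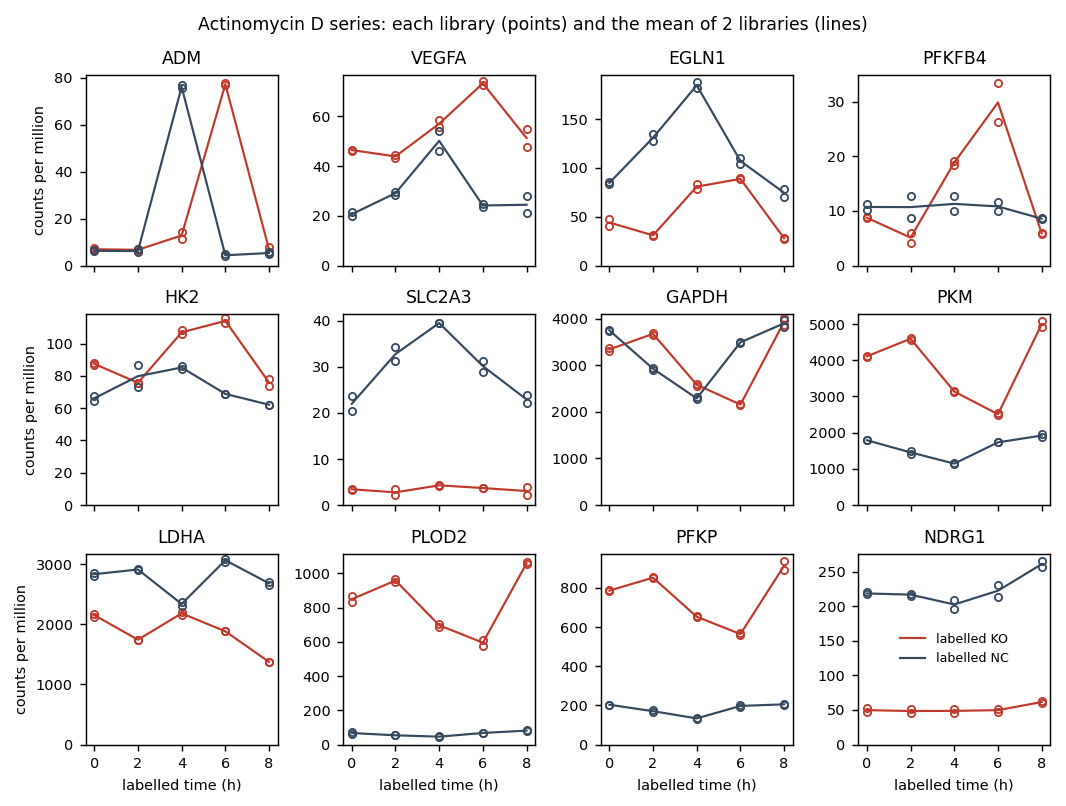
CPM of 12 members at each labelled time of the actinomycin D series (points are libraries, lines join the means of 2). ADM, VEGFA and EGLN1 peak where GAPDH and PKM are lowest, at 4 h under NC and at 6 h under KO; LDHA, PLOD2, PFKP and NDRG1 show the gap between labels.

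The NC libraries at 4 h and the KO libraries at 6 h share no library and no 0 h control. Of all genes, 24.4% and 28.0% were lower at these times and 27.1% and 19.7% higher. The share of all genes common to both times was not counted, so the overlaps below cannot be set against it. Of the 27 members lower in the first and the 24 lower in the second, 24 were shared, 88.9% of the first and all of the second; CA9, BNIP3 and PDK1 were lower in the first alone. Of the 9 and 8 that were higher, 7 were shared (77.8% and 87.5%): VHL, EGLN1, VEGFA, ADM, KDM3A, SLC2A1 and HK2. SLC2A3 (0.85) and PFKFB3 (0.86) were higher at NC 4 h, where the same genes gave 0.11 and 0.30 at KO 6 h without passing. PFKFB4 was higher at KO 6 h, from 8.68 and 8.81 CPM at 0 h to 26.2 and 33.5 (1.77 ± 0.19; edgeR, adjusted p = 8.8e-11), and at NC 4 h it gave 0.08. Whether these genes differ between the labels was not tested.

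By role, all 8 genes from triose phosphate to lactate, all 4 collagen-modifying enzymes and 7 of 8 genes from hexokinase to aldolase were lower at both times, with HK2 the exception. Of all genes, 24.4% were lower and 27.1% higher at NC 4 h, and 28.0% lower and 19.7% higher at KO 6 h. TPI1 under KO had 742 and 714 CPM at 0 h and 440 and 443 at 6 h (-0.72 ± 0.04), and PKM 4128 and 4086 at 0 h and 2489 and 2529 at 6 h (-0.71 ± 0.03). Under NC, GAPDH had 3770 and 3739 CPM at 0 h and 2312 and 2272 at 4 h (-0.71), and the largest falls among members with at least 10 CPM were those of ALDOC (-0.96 ± 0.15) and ENO2 (-0.90 ± 0.12), with CA9, at a lower level, at -1.82. LDHA fell by less than the other 7 genes of its group at both times (-0.28 and -0.19). These falls are relative to the other mRNAs: scaled to ribosomal protein genes, GAPDH gave -0.08 and 0.02, and TPI1 and PKM no longer passed at KO 6 h (-0.07 and -0.06). The members' median minus that of all genes was -0.41 at NC 4 h and -0.26 at KO 6 h with TMM, and -0.43 and -0.27 on the molecule scale. With ribosomal protein scaling it was -0.40 and -0.23. That scaling multiplies all genes of a library by 1 factor, so a similar distance there is no separate check. Below the median gene lay 28 of 40 members at NC 4 h and 26 at KO 6 h. Of genes outside the 40, 12 of 15 pentose phosphate and glycogen genes were lower and 1 higher at each of these times, while 17 and 18 of 34 other hypoxia-induced genes were higher and 9 lower.

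Whether the changes at 8 h differ between the labels was not tested. Under KO, 15 members were called higher than at 0 h (11.3% of all genes), with ENO2 (0.46 ± 0.09) and ALDOA (0.45 ± 0.14) highest. With ribosomal protein scaling neither passed (edgeR, adjusted p = 0.061 and 0.30), and ALDOA also lost its call without KO 0 h replicate 1, KO 0 h replicate 2 or KO 8 h replicate 2 (0.39 to 0.49). LDHA went from 2179 and 2131 to 1376 and 1377 CPM (-0.65 ± 0.03; edgeR, adjusted p = 5.0e-21) and EGLN1 from 40.3 and 47.8 to 27.6 and 28.2 (-0.66 ± 0.08). Relative to the median gene LDHA was at -0.65 with TMM, -0.66 with ribosomal protein scaling and -1.104 on the molecule scale. On the molecule scale, a power of RPKM that differs between libraries, a change also depends on a gene's RPKM. At 2 h LDHA had already 1747 and 1744 CPM under KO (-0.30 ± 0.03), but at 4 h it was at 2209 and 2160, near its 0 h level. Under NC at 8 h, LDHA was at 2708 and 2661 against 2813 and 2860 CPM at 0 h (-0.08, not past the threshold), and ENO2 (0.50 ± 0.11) and PLOD2 (0.28 ± 0.05) were the highest members that passed. ENO2 lost its call without NC 0 h replicate 1 (0.45) or NC 8 h replicate 2 (0.43). PLOD2 lost it without NC 0 h replicate 2 (0.20) or NC 8 h replicate 1 (0.20) and with ribosomal protein scaling (0.14), and both turned negative on the molecule scale (-0.59 and -0.93). At 6 h under NC the changes were small, with EGLN1 at 0.34 and LDHA at 0.11 above 0 h, and GAPDH at -0.10 and ENO1 at -0.09. GAPDH and ENO1 lost their calls whichever of the 4 libraries was left out, LDHA in every case but that of NC 6 h replicate 1, and EGLN1 without that library (0.29). GAPDH and ENO1 turned to 0.0087 and 0.017 with ribosomal protein scaling, and EGLN1 and LDHA to -0.20 and -0.63 on the molecule scale.

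A decline at a constant rate was fitted as a slope of log2 level on labelled time. On counts no member's slope passed in either label, and none differed between labels (edgeR; 0, 2 and 0 of 40 members had an unadjusted p under 0.05 for NC, KO and the difference, and 403, 635 and 529 of 17715 genes, of which 0.0% passed; DESeq2 called 2, 10 and 6 genes, none a member). TMM scaling sets each library against its own typical gene, so such a slope is relative. The authors' log2 molecule values are, in each library, an exact line of log2 RPKM with a slope of 1 to 1.22, and on that scale 30 of 39 members declined in each label (limma, adjusted p under 0.05), with a median slope of -0.16 per hour under NC and -0.19 under KO; over all genes the medians were -0.15 and -0.17, and 56.2% declined under NC and 62.5% under KO. The slope of the line on log2 RPKM differed between libraries. It was 1.11 and 1.08 at KO 0 h and 1.04 and 1.03 at KO 8 h, and 1.08 and 1.06 at NC 0 h and 1.05 and 0.9996 at NC 8 h. A change on the molecule scale therefore depends on a gene's RPKM too, and a smaller slope lowers genes of high RPKM more. LDHA had -0.22 and -0.26 per hour, GAPDH -0.20 and -0.23, PGK1 -0.17 and -0.21, and PLOD2 -0.11 and -0.20. Slopes of the short courses of ADM (-0.19 and 0.03), VEGFA (-0.14 and -0.11) and EGLN1 (-0.20 and -0.15) did not pass. No slope differed between the labels (2 of 39 with an unadjusted p under 0.05), and since the times were not in a steady order, a slope describes these courses poorly.

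ALDOA, BNIP3, TPI1, PGK1 and ENO2 need care in the actinomycin D tables. ALDOA had 11.2 to 29.8 CPM there and 915 to 1429 in the steady state, and BNIP3, TPI1, PGK1 and ENO2 are each also annotated on 1 sequence outside the main chromosomes, which can split or lengthen their counts; the cause of the ALDOA difference was not tested.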

How the data were processed

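RNA was sequenced from 6 steady-state and 20 actinomycin D libraries. The submitters' processing notes name STAR, RSEM, Bowtie2, deepTools and hg19, with no roles. The steady-state tables hold the authors' expected counts (23.3 to 24.4% of values above 0 are not whole, and they were rounded) and the authors' TPM. The actinomycin D tables hold counts, RPKM and log2 molecule values as deposited by the authors. No source used here says how the molecule values were made or whether counting used strand. All 37 mitochondrial genes are at 0 in those tables.

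Counts were tested with edgeR 4.0.16 (quasi-likelihood test, TMM, filterByExpr) in R 4.3.3, with Benjamini-Hochberg adjustment over all genes and a threshold of 0.05. The steady state was 1 fit of 6 libraries, and the actinomycin D series 1 fit of 10 groups. Alternatives used DESeq2 1.42.0, other size factors, no filter, a replicate block, length-adjusted offsets, scaling to 79 ribosomal protein genes, limma 3.58.1 on the molecule values, and fits without each library. The tests were first run on simulated data. Replicates differed beyond counting noise (chi-square per degree of freedom 3.81 to 42.8, and 3.90 to 5.30).

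Members were named first among those past the threshold with the largest changes at a mean of at least 10 CPM (up to 6 in each direction, or 2 for a single time). HIF1A, VEGFA, CA9, SLC2A1, PFKFB3, LDHA, PGK1, PDK1 and NDRG1 were always named between labels in the steady state and over all times. They are given as values per library, ranges or log2 changes. Not all are given for every comparison, and none for 0 h between labels or for NC 2 h. Other members named were picked after their values were seen. The members and lists were chosen with earlier results of these data known.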

Additional observations from a re-analysis of the deposited data

Results flagged for a closer look

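For 7 members every steady-state library labelled KO lay on one side of every library labelled NC, and every actinomycin D library labelled KO on the other side. The difference between the sets was not tested. Of all genes, the groups did not overlap for 60.0% in the steady state and for 38.2% over all times. How many of all genes switched sides was not counted, so the 7 cannot be set against that share. The actinomycin D libraries labelled NC may not be PANC-1 cells, which was not tested. The log2 changes, KO minus NC, in the steady state and over all times were 0.67 and -2.12 for NDRG1, -0.49 and 1.28 for KDM3A, -1.10 and 0.80 for P4HA1, and -1.16 and 3.71 for PLOD2. They were 0.81 and -3.08 for SLC2A3, 0.28 and -1.39 for PFKM, and 0.66 and -1.69 for ALDOC.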

How the results depend on the processing

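The replicate block kept all 16 counts of members within 1.5 times (26 called in the steady state) and 79 of 80 gene values on their side of the threshold, CA9 over all times being the exception (0.41). The replicate numbers do not pair the libraries (correlations of deviations -0.20 to 0.16 and -0.06 to 0.07). Between labels over all times, ribosomal protein scaling and the molecule scale turned HIF1A to 0.10 and 0.16, SLC2A1 to 0.37 and 0.44 (0.023 with no filter) and PGK1 to 0.20 and 0.27. At NC 6 h GAPDH became 0.0087 and ENO1 0.017 with ribosomal protein scaling, and EGLN1 -0.20 and LDHA -0.63 on the molecule scale. That scale also turned ENO2 to -0.59 and PLOD2 to -0.93 at NC 8 h, PGAM1 to -0.61 and PLOD2 to -0.64 at KO 2 h, and ENO2 to -1.37 and ALDOA to -1.35 at KO 8 h. Members called with ribosomal protein scaling were 16 at NC 2 h and 13 at KO 8 h. On the molecule scale they were 6, 21, 29 and 37 at NC 2, 4, 6 and 8 h, 36 and 39 at KO 2 and 8 h, and 30 for each slope. DESeq2 called 9 at NC 6 h and 11 at NC 8 h. Without 1 library the counts were 20 to 30 in the steady state, 1 at NC 6 h (whichever of its 4 libraries was left out), 1 to 6 at NC 8 h (1 or 2 without either NC 0 h library or NC 8 h replicate 2) and 5 to 7 at KO 2 h (5 without KO 0 h replicate 2 or KO 2 h replicate 1), and LDHA in the steady state was -0.086 to 0.013. The causes were not tested. Few reads limit CA9, EGLN3 and ANKRD37.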
